A study of Mus musculus with 6 samples.

Results

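The genes described here are 10 regulators of the passage from G1 to S phase, the cyclins Ccne1, Ccne2, Ccnd1, Ccnd2 and Ccnd3, the kinases Cdk2, Cdk4 and Cdk6, the inhibitor Cdkn1b (p27) and the transcription factor E2f1. They were chosen by name for their known role, with earlier results of these data known. All 10 were among the 17068 genes in the count table. Lateral cortex of female c57/bl6 mouse embryos was taken at E12.5, and its total RNA was sequenced in bulk as stranded, paired-end libraries. The 4 controls carried no Cre, with controls 1, 2 and 4 being Foxp1 fl/+ and control 3 Foxp1 fl/fl. The 2 libraries labelled Foxp1cKO came from Foxp1 fl/fl;Emx1Cre embryos. All 6 embryos thus carried at least 1 floxed Foxp1 allele, and no control carried Emx1Cre alone. Emx1Cre is active in progenitors of the dorsal telencephalon and their progeny, so blood, vessel and ventral cells in the tissue are not its targets. The comparison asked how the G1/S regulators differed between the groups.

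A cell in G1 first makes D-type cyclins, which bind Cdk4 or Cdk6 and begin to phosphorylate the pocket proteins Rb1, Rbl1 and Rbl2. This frees E2F factors, which switch on genes for DNA replication and also the E-type cyclins, whose complexes with Cdk2 complete the step, while p27 holds the kinase complexes back. In the cortical ventricular zone, the length of G1 and the amount of these regulators are known to bear on whether a radial glial cell divides again or gives rise to neurons.

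The table held 50076008 to 78346979 counts per library, and 3 counts, taken as the floor, corresponded to 0.0381 to 0.0596 CPM (counts scaled to a common library size after TMM, edgeR's correction for composition). This floor covers counting error only. Foxp1 itself had 59.7, 60.8, 71.2 and 79.1 CPM in controls 1 to 4 and 83.2 and 76.8 CPM in the libraries labelled Foxp1cKO 1 and 2, so the count did not separate the groups in the direction of the label (log2 fold change 0.24, SE 0.129, adjusted p = 0.468 by the quasi-likelihood test of edgeR, Benjamini-Hochberg method over all genes). The count spans the whole gene and does not isolate the floxed part. Dorsal markers were present in every library, with 171 to 245 CPM of Pax6 and 68.8 to 135 CPM of Emx1. Control 3 stood apart by ventral telencephalic markers, which summed to 791 CPM there. Controls 1, 2 and 4 had 219.9, 345 and 255 CPM. Both libraries labelled Foxp1cKO lay between, at 511 and 378 CPM, below control 3 and above every other control. The Nkx2-1 level of control 3 was 13.2 CPM against at most 1.07 CPM elsewhere. Control 4 had the lowest sum of neuron markers, 2161 CPM against 3269 to 4313 CPM in the other controls. It was 2926 and 3198 CPM in the libraries labelled Foxp1cKO. The summed erythroid markers were 1021 to 3344 CPM in the controls and 3687 to 3942 CPM in the libraries labelled Foxp1cKO. Of the 6 markers, 4 were above all controls in both of these and 0 below, against 11.5% and 13.1% of all genes. Summed levels of the other marker lists overlapped between the groups, at 2155 to 2706 CPM in the controls against 2378 to 2477 CPM for dorsal radial glia, 599 to 796 against 569.5 to 640.1 CPM for intermediate progenitors, 113 to 176 against 142 to 174 CPM for endothelium, 17.3 to 27 against 25.9 to 26.2 CPM for microglia and 89.8 to 552 against 145 to 333 CPM for mesenchyme. Single markers could still separate. Hes6, 1 of 5 intermediate progenitor markers, was below all controls in both libraries labelled Foxp1cKO (log2 fold change −0.415 by edgeR). Pecam1, 1 of 6 endothelial markers (0.653), and C1qa, 1 of 5 microglial markers (0.809), were above all controls. In the radial glia, neuron, ventral and mesenchyme lists 0 markers were below or above all controls. The part of these differences in the results that follow was not tested, and in bulk tissue fewer cells of a type and less RNA per cell cannot be told apart.

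Ccne1 encodes cyclin E1 and lies at chr7:38097984-38107534 on the minus strand (GRCm38, GENCODE M21). The stretch upstream of its start is shown because Ccne1 had the largest log2 fold change in either direction among the 10 genes. It runs from 250 to 51 bases before the start in RefSeq (chr7:38107541-38107740, minus strand, GRCm38.p6), beyond any annotated exon, and is written 5′ to 3′ with GC boxes (GGGCGG on either strand) in capitals.
Ccne1 upstream: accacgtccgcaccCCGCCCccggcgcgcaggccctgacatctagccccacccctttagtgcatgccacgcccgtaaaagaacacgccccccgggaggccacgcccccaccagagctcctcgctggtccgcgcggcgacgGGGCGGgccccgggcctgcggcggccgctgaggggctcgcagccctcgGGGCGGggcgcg
This stretch held 3 GC boxes. A GC box is the letter pattern recognised by Sp1-family factors, and 35.7% of the 32851 RefSeq promoter windows of 300 bases held at least 1, against 6 of the 7 members with a window. Cdk6 was the member with none. E2F motifs were searched as TTTCCCGC, TTTCCCGG, TTTCGCGC, TTTCGCGG, TTTGCCGC, TTTGCCGG, TTTGGCGC and TTTGGCGG on both strands, and 4.51% of all windows held at least 1 of these forms. Among the 7 members, Cdk2 alone had a match, and it is shown in capitals within 30 bases on the minus strand, the strand of Cdk2 (chr10:128705173-128705202, GRCm38.p6), part of which is annotated as exon of Pmel on the other strand.
Cdk2 upstream: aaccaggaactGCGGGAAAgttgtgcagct
Of the 16 E2F target genes with a window (listed further on as genes of S phase entry), 8 held a match. Members and targets were counted by gene, with a match in any window of the gene, whereas 35.7% and 4.51% were counted by window. These letters are a description of the windows, and no match says only that these forms are not in them. Ccne2, Ccnd1 and Ccnd2 had no window.

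The 10 genes did not move in one direction. Ccne1 and Cdk4 were lower in both libraries labelled Foxp1cKO than in every control, while Ccnd1, Ccnd3 and Cdk6 were higher in both, and the other 5 overlapped between the groups. None of the 10 passed an adjusted p of 0.05 in edgeR, where 26 genes did (0.152% of 17068, all 26 higher, whereas 13 of the 96 called without control 4 were lower). At an unadjusted p under 0.05, Ccne1 and Cdk4 were lower and Ccnd1 and Cdk6 higher, against 6.5% of all genes lower and 6.53% higher. Both libraries labelled Foxp1cKO lay below all controls in 13.1% of genes and above all controls in 11.5%. By DESeq2, which called 507 of 15067 genes (3.36%, 197 lower and 310 higher), 2 of the 10 passed, Ccne1 (adjusted p = 0.0191) and Cdk6 (adjusted p = 0.00116). Limma on the variance-stabilised values called 27 genes and 0 of the 10. Of the 10, 5 had a log2 fold change below 0, as did 50.7% of all genes, and their median was −0.059 against −0.004 over all genes.

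**Figure D1:**
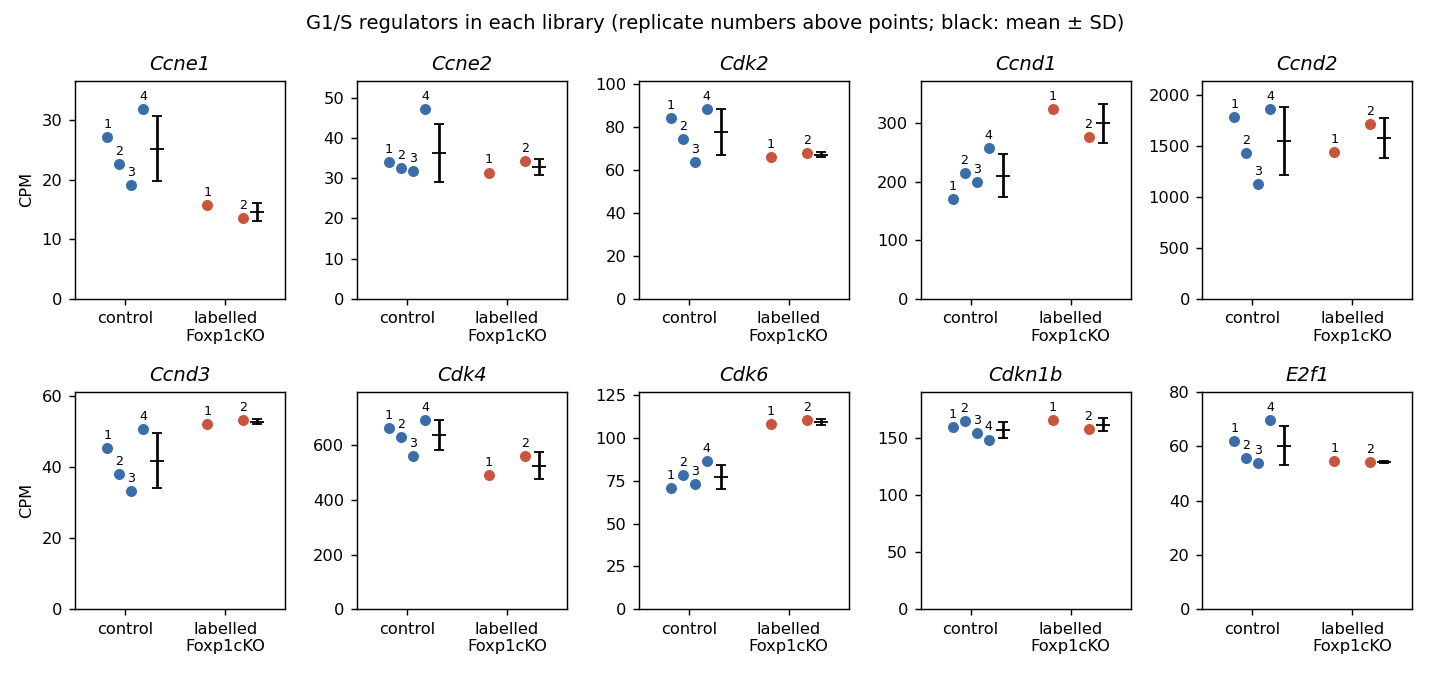
CPM of each of the 10 genes on a linear axis from 0, with one point per library (blue controls, red libraries labelled Foxp1cKO, replicate number above) and the mean ± SD in black. Ccne1 is below all controls in both red points (15.7 and 13.5 CPM against 19.1 to 31.8), and Cdk6 is above all controls (108 and 110.2 CPM against 70.4 to 86.3).

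Among the E-type cyclins and their kinase, Ccne1 differed most on the log2 scale. It was at 27.2, 22.7, 19.1 and 31.8 CPM in controls 1 to 4 and at 15.7 and 13.5 CPM in the libraries labelled Foxp1cKO 1 and 2. The groups did not overlap, and control 3 was the control nearest to them. The means were 25.2 ± 5.53 (SD, n = 4) and 14.6 ± 1.58 CPM (SD, n = 2), a log2 fold change of −0.79 (SE 0.213), or 0.579-fold, with an unadjusted p = 0.00744 and an adjusted p = 0.265 by edgeR. With each library left out in turn the log2 fold change was −0.92 to −0.66, and it was −0.92 without control 3 and −0.66 without control 4. No annotated exon of another gene overlaps Ccne1.

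Ccne2, the gene of cyclin E2, was at 33.9, 32.6, 31.7 and 47.1 CPM in the controls and at 31.4 and 34.2 CPM in the libraries labelled Foxp1cKO. Control 4 lay far above the other 3, which were level with both libraries labelled Foxp1cKO. Its log2 fold change was −0.15 (SE 0.173, adjusted p = 0.756 by edgeR) and 0.0063 without control 4.

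Cdk2, the kinase bound by the E-type cyclins, was at 84.3, 74.3, 63.9 and 88.2 CPM in the controls and at 66.2 and 67.9 CPM in the libraries labelled Foxp1cKO. Only control 3 lay below them. Its log2 fold change was −0.21 (SE 0.134, adjusted p = 0.533 by edgeR).

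The E-type cyclins could also be set against each other within a library, where composition scaling cancels. Ccne1 made up 51.4%, 47.8%, 44.1% and 47% of the summed CPM per kilobase of exon of Ccne1 and Ccne2 in controls 1 to 4 and 39.6% and 34.1% in the libraries labelled Foxp1cKO. The share was lower in both than in any control, control 3 included. On the log2 CPM scale, the Ccne1 to Ccne2 ratio was −0.53 ± 0.172 (SD, n = 4) in the controls and −1.17 ± 0.243 (SD, n = 2) in the libraries labelled Foxp1cKO. The difference of −0.64 had an exact two-sided permutation p = 0.0667 (0.133 adjusted over the 4 ratios tested), and 0.0667 is the smallest p that 4 against 2 libraries allow.

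The D-type cyclins went the other way or overlapped. Ccnd1, the gene of cyclin D1 (chr7:144929931-144939925, minus strand, GRCm38), was at 169.8, 215, 199 and 257 CPM in controls 1 to 4 and at 323 and 276 CPM in the libraries labelled Foxp1cKO. Both were above control 4, the highest control. The means were 210.1 ± 36.2 (SD, n = 4) and 299.5 ± 32.7 CPM (SD, n = 2), a log2 fold change of 0.51 (SE 0.159), or 1.43-fold, with an unadjusted p = 0.0145 and an adjusted p = 0.291 by edgeR.

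Ccnd2, the gene of cyclin D2 which had the highest CPM per kilobase of the D-type cyclins, was at 1779.6, 1430.5, 1127 and 1858 CPM in the controls and at 1442 and 1713 CPM in the libraries labelled Foxp1cKO. Control 3 was the lowest library and control 4 the highest, with the libraries labelled Foxp1cKO between them. The log2 fold change was 0.026 (SE 0.206, adjusted p = 0.973 by edgeR) and −0.11 without control 3.

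Ccnd3, the gene of cyclin D3, was at 45.4, 38, 33.4 and 50.7 CPM in the controls and at 52.3 and 53.3 CPM in the libraries labelled Foxp1cKO. Both lay above all controls, though control 4 was close to them. This gave a log2 fold change of 0.34 (SE 0.163, adjusted p = 0.431 by edgeR), and it was 0.23 without control 3 and 0.44 without control 4.

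Within the D-type cyclins, Ccnd1 contributed 15.7%, 22.6%, 25.5% and 21.1% of the summed CPM per kilobase in the controls and 30.1% and 23.8% in the libraries labelled Foxp1cKO, so the shares overlapped. The Ccnd3 share was 2.14% to 2.29% in the controls and 2.62% and 2.46% in the libraries labelled Foxp1cKO. The Ccnd1 to Ccnd2 log2 ratio differed by 0.48 (exact two-sided permutation p = 0.267, and 0.267 adjusted over 4 ratios), with 0.24 when Foxp1cKO 1 and 0.30 when control 1 was left out.

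Cdk4 and Cdk6 encode the kinases that pair with D-type cyclins, and they differed in opposite directions. Cdk4 (chr10:127063534-127067920, plus strand, GRCm38) was at 661, 629, 561 and 690.3 CPM in controls 1 to 4 and at 489 and 560.5 CPM in the libraries labelled Foxp1cKO. The libraries labelled Foxp1cKO were below all controls, but the library labelled Foxp1cKO 2 and control 3 were all but level. EdgeR gave a log2 fold change of −0.28 (SE 0.11, unadjusted p = 0.0394, adjusted p = 0.364 by edgeR), or 0.826-fold, and it was −0.18 without Foxp1cKO 1.

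Cdk6 (chr5:3341485-3531008, plus strand, GRCm38) was at 70.4, 78.1, 72.8 and 86.3 CPM in the controls and at 108 and 110.2 CPM in the libraries labelled Foxp1cKO. Every control was lower, and the libraries labelled Foxp1cKO were close to each other. The means were 76.9 ± 7.05 (SD, n = 4) and 109 ± 1.91 CPM (SD, n = 2), a log2 fold change of 0.50 (SE 0.0958), or 1.42-fold, with an unadjusted p = 0.00117 and an adjusted p = 0.194 by edgeR. It was the smallest p of the 10 genes. Without control 4 the adjusted p by edgeR was 0.0444 (log2 fold change 0.56), which passed the threshold, in a fit that called 96 genes. Without control 1, 2 or 3 the adjusted p by edgeR was 0.527, 0.556 or 0.157, which did not pass. The log2 fold change was 0.44 to 0.56 with each library left out in turn.

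The opposite differences of the kinases appeared as a shift within each library. Cdk6 was 2.41%, 2.8%, 2.93% and 2.82% of the summed CPM per kilobase of Cdk4 and Cdk6 in controls 1 to 4 and 4.86% and 4.37% in the libraries labelled Foxp1cKO. The groups were apart by more than the spread in either. The Cdk4 to Cdk6 log2 ratio was 3.05 ± 0.126 (SD, n = 4) and 2.26 ± 0.114 (SD, n = 2), a difference of −0.78 (exact two-sided permutation p = 0.0667, the smallest possible, and 0.133 adjusted over 4 ratios). Cdk4 remained the far more abundant of the kinases in every library.

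**Figure D2:**
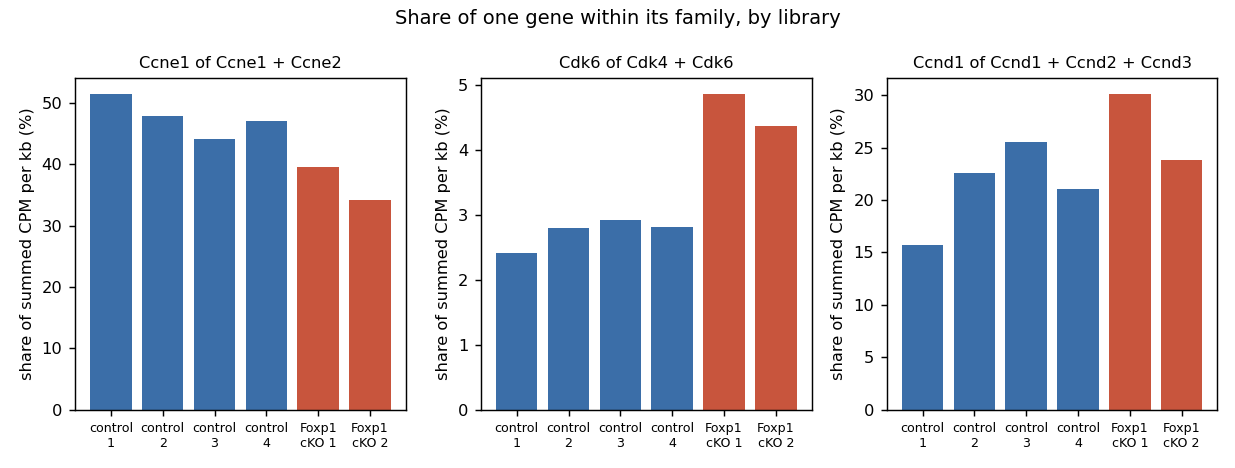
Share of one gene in the summed CPM per kilobase of its family, in percent from 0, with one bar per library (blue controls, red libraries labelled Foxp1cKO) and a panel each for Ccne1, Cdk6 and Ccnd1. The Ccne1 share is lower in both red bars (39.6% and 34.1% against 44.1% to 51.4%), the Cdk6 share is higher (4.86% and 4.37% against 2.41% to 2.93%) and the Ccnd1 shares overlap.

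Cdkn1b encodes p27, which binds and blocks the cyclin E-Cdk2 complex. Cdkn1b was at 159.8, 165, 155 and 149 CPM in controls 1 to 4 and at 166 and 158 CPM in the libraries labelled Foxp1cKO. It had the narrowest spread of the 10 genes, and the groups overlapped. Its log2 fold change was 0.043 (SE 0.0725, adjusted p = 0.836 by edgeR). The Cdkn1b to Ccne1 log2 ratio was 2.67 ± 0.35 (SD, n = 4) in the controls and 3.47 ± 0.11 (SD, n = 2) in the libraries labelled Foxp1cKO, a difference of 0.81 (exact two-sided permutation p = 0.133, and 0.177 adjusted over 4 ratios). The ratio was higher in both libraries labelled Foxp1cKO than in every control.

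E2f1 encodes an E2F activator of S phase genes. It was at 61.8, 55.6, 53.8 and 69.6 CPM in the controls and at 54.6 and 54.1 CPM in the libraries labelled Foxp1cKO. Control 3 lay just below both and the other controls above. The log2 fold change was −0.15 (SE 0.116, adjusted p = 0.615 by edgeR).

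**Figure D3:**
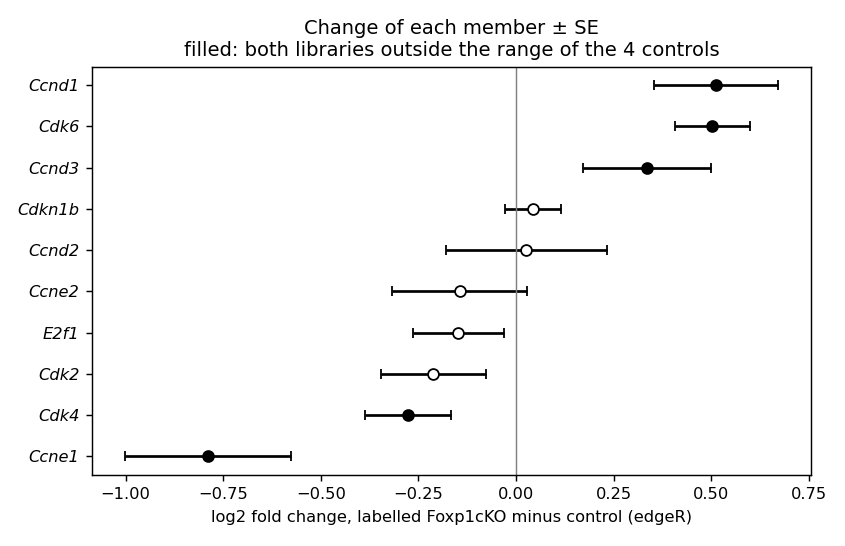
Log2 fold change of each of the 10 genes from edgeR, libraries labelled Foxp1cKO minus controls, with bars of ± 1 SE. Filled points are genes whose 2 libraries labelled Foxp1cKO both lay outside the range of the 4 controls, namely Ccne1 and Cdk4 (lower) and Ccnd1, Cdk6 and Ccnd3 (higher).

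Levels of different genes can be compared only per length of exon. In the controls the mean CPM per kilobase was highest for Cdk4 (196 ± 17.1) and Ccnd2 (165 ± 35.8), whose libraries overlapped, and then Ccnd1 (44.6 ± 7.69) and Cdkn1b (34.6 ± 1.46). E2f1 (19.1 ± 2.26), Cdk2 (12.5 ± 1.75), Ccne2 (10.4 ± 2.07) and Ccne1 (9.47 ± 2.08) followed, and the libraries of Cdk2 overlapped with those of Ccne2, and those of Ccne2 with those of Ccne1. Cdk6 (5.5 ± 0.504) and Ccnd3 (4.77 ± 0.875) were lowest and also overlapped (SD, n = 4 throughout). In the libraries labelled Foxp1cKO, Ccne1 was lowest at 5.49 ± 0.593 CPM per kilobase, Ccnd3 was at 6.01 ± 0.0773 and Cdk6 was at 7.78 ± 0.137 (SD, n = 2). Ccne1 was thus above Cdk6 and Ccnd3 in the control means and below them in the means of the libraries labelled Foxp1cKO. In Foxp1cKO 1, however, Ccne1 and Ccnd3 were all but level (5.9 and 5.96 CPM per kilobase). This order depends on the merged exon lengths, which were 2662 bases for Ccne1, 8775 for Ccnd3 and 13989 for Cdk6. The lengths, also used for the shares within families, include exon bases that overlap a gene on the other strand. Ccne2 had 609 such bases of 3495, Ccnd1 1100 of 4709, Cdk4 641 of 3249 and Ccne1 0. The effect of these overlaps on the order and the shares was not tested.

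Controls 3 and 4 were often the extremes among the controls. Control 4 had the highest control level in 9 of the 10 (Cdkn1b was lowest there), whereas it was highest in 36.3% of all genes. Control 3 had the lowest in 7 of the 10, against 34.5% of all genes. The SD of log2 CPM among controls had a median of 0.228 over the 10 genes and of 0.163 over the 13855 genes at 1 CPM or more. E2F targets and G2 and M phase regulators also had their lowest and highest control sums in controls 3 and 4.

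**Figure D4:**
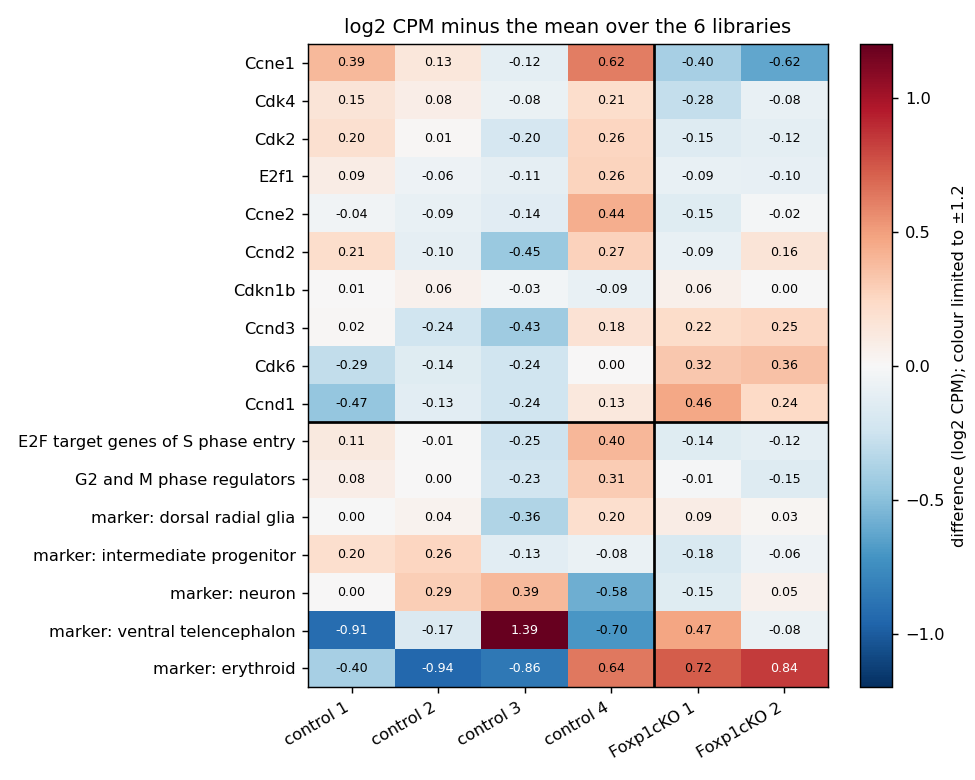
Log2 CPM of each of the 10 genes, and mean log2 CPM of gene lists and marker lists, minus the mean over the 6 libraries (colour and number, colour limited to ±1.2). Ccne1 is at −0.40 and −0.62 in the libraries labelled Foxp1cKO, and control 3 stands out for ventral telencephalic markers and control 4 for low neuron markers.

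Exons of 7 of the 10 genes overlap exons of a gene on the other strand, and the strand setting of the counting is not given in the sources used here, so these 7 counts are uncertain to that extent. The overlap was 34 bases for Cdk2, 361 for Ccnd3 (with Bysl), 368 for Cdk6, 609 for Ccne2 (with Ints8), 641 for Cdk4 (with Tspan31), 740 for Ccnd2 and 1100 for Ccnd1 (with LTO1). LTO1 had 31.9 and 25.4 CPM in the group means, opposite in direction to Ccnd1, and Tspan31 had 68 and 66.1 CPM. Ints8 had 145 and 112 CPM and Bysl 42.1 and 31 CPM, lower in the libraries labelled Foxp1cKO like Ccne2 and unlike Ccnd3. Gm17590, which overlaps Cdk6, had under 1 CPM. These are levels of the neighbours themselves, and their part in the counts of the 7 genes was not tested.

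The other genes around the G1/S step were taken from lists of known function, and none of their members passed an adjusted p of 0.05 in edgeR. Of the other CDK inhibitors, 4 of 6 were in the table and Cdkn2a and Cdkn2b were not analysed here. Cdkn1a, the gene of p21, a p53 target that inhibits cyclin-CDK complexes, was at 4.67, 5.92, 5.17 and 6.07 CPM in the controls and at 11.1 and 11.2 CPM in the libraries labelled Foxp1cKO. Both were well above all controls. The log2 fold change was 1.03 (SE 0.157, unadjusted p = 0.000307, adjusted p = 0.0919 by edgeR and 1.09e-07 by DESeq2). Cdkn2c (p18), an inhibitor of Cdk4 and Cdk6, had 27.8 to 35.6 CPM in the controls and 24.8 and 24.4 CPM in the libraries labelled Foxp1cKO (log2 fold change −0.40, SE 0.115, adjusted p = 0.279 by edgeR). The median of the list was −0.23, and it was −0.077 without Foxp1cKO 1 and −0.38 without Foxp1cKO 2. Cdkn1c (p57) was at −0.28, with −0.11 and −0.50 when the same libraries were left out.

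The E2F, DP and pocket protein genes, which pass the signal on, were close to 0 in all 12 (7 lower, 5 higher, −0.091 to 0.1, median −0.021, which was −0.064 without Foxp1cKO 1 and 0.064 without Foxp1cKO 2). Rb1 was at 0.1 (SE 0.119) and E2f2 at −0.029 (SE 0.153). Of 16 genes of CDK activation and of cyclin or p27 turnover, 11 were lower and 5 higher, with a median of −0.068. Skp1a (log2 fold change −0.29, SE 0.0912, adjusted p = 0.291 by edgeR) and Cul1 (−0.18) encode parts of the SCF ubiquitin ligase, and Cul4a (−0.11) a part of another. These were the 3 of the 16 below every control in both libraries labelled Foxp1cKO, against 13.1% of all genes. Above every control were 0 of the 16, against 11.5% of all genes. Ccnh, part of the CDK-activating kinase, was at −0.073.

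All 19 of the E2F targets of S phase entry in the table were lower in the fit (Cdt1 was not analysed here), with a median of −0.23 and a range of −0.40 to −0.03. Their summed level was 3515, 3304, 2802 and 4245 CPM in controls 1 to 4 and 2978 and 2993 CPM in the libraries labelled Foxp1cKO. The sums thus lay within the control range, above control 3 and below the others, and the median was −0.34 without control 3 and −0.12 without control 4. Rrm2 and Tyms, which make DNA precursors, had log2 fold changes of −0.40 (adjusted p = 0.27) and −0.40 (adjusted p = 0.364 by edgeR). They were the 2 of the 19 below all controls in both libraries labelled Foxp1cKO, against 13.1% of all genes. Above all controls were 0 of the 19, against 11.5% of all genes. Rrm2 passed in DESeq2 (adjusted p = 0.0464). Mcm7, a replicative helicase subunit, was at −0.23.

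Of the 13 G2 and M phase regulators, 12 were lower and 1 higher, with a median of −0.19 (−0.014 without control 4 and −0.27 without control 3). Their sums were 2906 to 4104 CPM in the controls and 3005 to 3343 CPM in the libraries labelled Foxp1cKO, so the groups overlapped. Ccnf was at −0.27 and Cdk1 at −0.19. Of 8 p53 and growth arrest genes, 4 were lower and 4 higher (median 0.014, and −0.053 without control 3). Ccng1, a p53 target, was at 0.39 (SE 0.11, adjusted p = 0.278) and Mdm2, the ubiquitin ligase of p53, at 0.085. Btg2, an antiproliferative gene, was at −0.35 (SE 0.113, adjusted p = 0.299) and Trp53 at −0.20, with Btg1 at −0.056 (edgeR throughout).

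**Figure D5:**
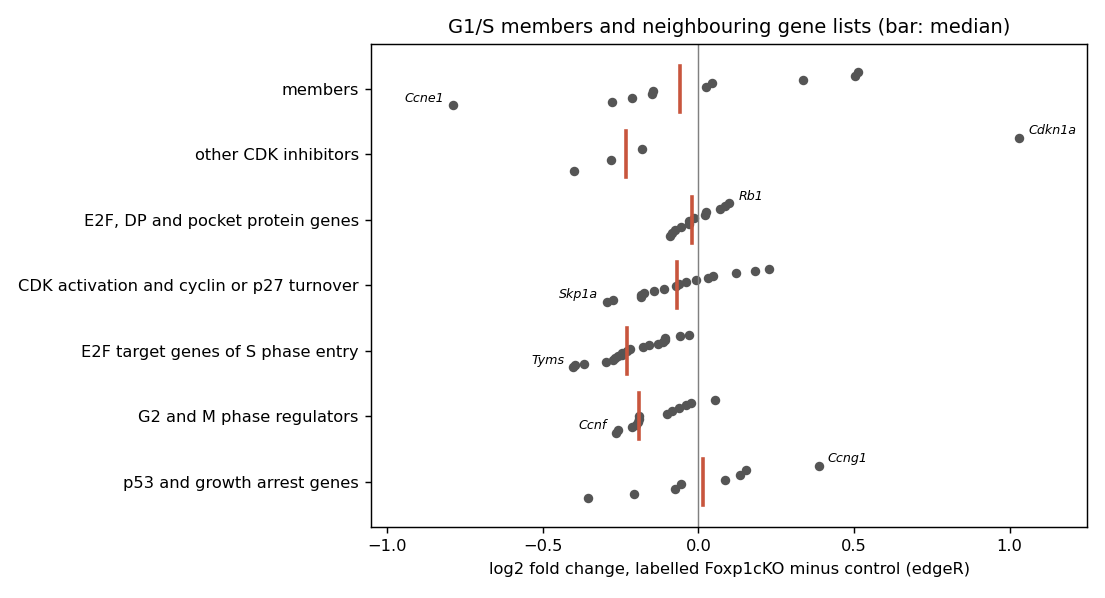
Log2 fold change (edgeR, libraries labelled Foxp1cKO minus controls) of every gene in the 10 regulators (first row) and 6 lists around them, with a red bar at each list's median and the gene of largest change named. The 10 regulators spread from −0.79 to 0.51, E2F targets lie between −0.40 and −0.03, and Cdkn1a is at 1.03.

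The genes whose profile over the 6 libraries was nearest to that of Ccne1 were 9930014A18Rik, Gm17092, Lct, 4930557F10Rik and Nek11. Their root mean square distances to it were 0.117 to 0.154 on the centred log2 CPM scale, against a median of 0.456 over 13845 genes with a mean of at least 1 CPM. None of the 5 had more than 4.1 CPM in the control mean.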

How the data were processed

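The authors extracted total RNA with miRNeasy, prepared TruSeq stranded libraries, aligned the read pairs with STAR (genome mm10), obtained counts per gene from HTSeq 0.9.1 (union mode), and dropped genes under a low-count limit. Their deposited table holds whole counts per gene without normalization. A second deposited table holds VST values from the authors, on a log2-like scale, which were used only in the limma alternative. Litter, part of the authors' DESeq2 1.30.1 model, was not used here since the labels do not give it.

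Counts were tested in R 4.3.3 with edgeR 4.0.16 (quasi-likelihood test, TMM, group alone, all 17068 genes, Benjamini-Hochberg adjustment, threshold 0.05). Log2 CPM used a prior count of 2. The 4 ratios were tested by exact permutation over 15 splits. Alternatives were DESeq2 1.42.0, limma 3.58.1, DESeq2 size factors, total counts, a filter of 1 CPM in 2 libraries, each library left out, the replicate block and a prior count of 0.5. Lengths are merged exons of GENCODE M21, where 17047 identifiers were found. Promoter windows and their sequences are from RefSeq (GRCm38.p6). The edgeR, DESeq2 and limma fits were tried on simulated data. Between control pairs the chi-square per gene was 25.9 to 193, and it was 31.4 between the libraries labelled Foxp1cKO, so every pair differed by far more than sampling noise. Each library came from a separately labelled sample, and p-values measure the spread between these samples.

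The 10 genes and all lists were chosen with earlier results of these data known. Named genes of a list had an unadjusted p under 0.05 or groups that did not overlap, or else the largest or the median log2 fold change of the list. For Ccne1, the 5 nearest profiles were named.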

Additional observations from a re-analysis of the deposited data

Results flagged for a closer look

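Ccne2 in control 4 stood apart from the other controls, at 47.1 CPM against 31.7 to 33.9 CPM, by Dixon's test on log2 CPM (gap over range 0.83). It was 1 of 14 such tests, and chance alone gives about 1 in 20 groups.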

How the results depend on the processing

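Across all genes, edgeR called 26, DESeq2 507, and edgeR 2 to 96 with each library left out (6 without control 1, 2 without control 2, 20 without control 3, 96 without control 4, 9 without Foxp1cKO 1 and 3 without Foxp1cKO 2). The count of the 10 genes called was 2 by DESeq2 (Ccne1, log2 fold change −0.78, and Cdk6) and 0 to 1 with a library left out (Cdk6 without control 4). Signs reversed for small values. Ccne2 was at −0.2234 to 0.0063 with a library left out, the latter without control 4. Ccnd2 was at −0.12 to 0.1453 (−0.0099 without control 2, −0.11 without control 3, −0.12 without Foxp1cKO 2). E2f2 was at −0.0905 to 0.10, the latter without control 4. The ranges with a library left out were −0.81 to −0.47 for the Ccne1 to Ccne2 ratio, −0.86 to −0.70 for Cdk4 to Cdk6, 0.24 to 0.71 for Ccnd1 to Ccnd2 and 0.66 to 0.93 for Cdkn1b to Ccne1. The numbers 1 and 2 are shared by both groups. The labels tie the numbers to no shared litter or batch, so the numbers were not taken to pair the libraries. Same-numbered libraries' deviations correlated at −0.0975, but 2 pairs are too few to show or exclude pairing. With the replicate block edgeR called 0 genes (3027 at an unadjusted p under 0.05), with Ccnd2 at −0.022, Cdkn1b at −0.0025, E2f2 at 0.12, Ccne1 at −0.77 (adjusted p = 0.2) and Cdk6 at 0.55 (adjusted p = 0.2). Controls 3 and 4 have no partner of the same number, so the group difference in the block fit rested on the libraries numbered 1 and 2. The cause of the differences between settings was not tested. A lone library left in a group is assumed to vary like the controls. With 4 against 2 libraries the precision was set by the number of embryos and not by depth.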

Other observations

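Among the other cyclin and CDK genes in the table, taken by symbol after their values were seen, 26 were tested by edgeR, 12 lower and 14 higher, with a median log2 fold change of 0.015. None passed the adjusted threshold. At an unadjusted p under 0.05, 2 of the 26 were lower and 2 higher, against 6.5% of all genes lower and 6.53% higher. Cdk17 was at 108 and 148 CPM in the group means (log2 fold change 0.45, SE 0.116, adjusted p = 0.251) and Cdk12, a transcriptional kinase, at 124 and 142 CPM (0.19, SE 0.0725, adjusted p = 0.35). Cdk9, the kinase that releases paused RNA polymerase II, was at −0.21 (SE 0.0741, adjusted p = 0.332), and Cdk11b at −0.27 (SE 0.0994, adjusted p = 0.34). All p-values are from the quasi-likelihood test of edgeR, Benjamini-Hochberg method over all genes.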
